A study of Mus musculus with 4 samples.

Results

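The genes described here encode the pore-forming alpha-1 subunits of voltage-gated calcium channels: Cacna1a, Cacna1b, Cacna1c, Cacna1d, Cacna1e, Cacna1g, Cacna1h and Cacna1i. They were taken by gene symbol, 8 of the 32287 features measured, and each symbol matched 1 feature. The nuclei sequenced came from the medial prefrontal cortex of mice of the C57BL/6J strain, aged 9 weeks, with the tissue taken 24 hours after an injection of DOI, a psychedelic that activates serotonin receptors, or of saline. The labels give 2 DOI and 2 saline samples, with 1 female and 1 male sample in each group; whether a sample is 1 animal is not given in the sources used here. The tissue of all 4 samples, saline included, carried scFLARE2, a tool that releases a transcription factor in cells with high calcium during light, and its reporter TRE-mCherry-p2a-bReaChES, which encodes a red protein and an opsin. The promoter that drives scFLARE2 is not given in the sources used here.

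All samples were deposited in 1 pooled matrix of 22402 barcodes and 157575088 UMIs (unique molecular identifiers, each standing for 1 captured RNA molecule). Barcode endings separate 4 libraries of 19968985 to 57947155 UMIs, here called libraries 1 to 4, but which sample an ending stands for is not given in the sources used here. The matrix was therefore treated as 1 sample: DOI was not compared with saline, nor females with males, no p-value was computed, and the libraries are set side by side without being replicates. Filters kept 12991 nuclei (4193, 3477, 1572 and 3749 in libraries 1 to 4) with a median of 8892 UMIs, and these held 368910 UMIs of the 8 genes. Library 4 lost 4510 of its 8327 barcodes to the filters, nearly all of them to the limit on mitochondrial UMIs. Across libraries, 50 barcode sequences occurred more than once, and 34 kept nuclei carried one of them.

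Nuclei were clustered without the calcium channel genes and clusters were named by resemblance to a cell class from marker genes. There were 8313 excitatory and 1347 inhibitory cortical neurons, 2787 non-neuronal nuclei and 544 other neurons. The excitatory nuclei comprised 2358 L6 CT-like (corticothalamic), 1475 L2/3 IT-like (intratelencephalic), 1149 L6 IT-like, 954 L5 ET-like (extratelencephalic), 446 L4/5 IT-like, 303 L6b-like and 438 L5/6 NP-like nuclei, the last named for near-projecting cells. A cluster of 1153 excitatory nuclei led by Il1rapl2 and Zfp804b reached too few markers for a name and is called by those genes. A further 37 nuclei, led by St18 and Prr5l, genes known from oligodendrocytes, were counted as excitatory but belong to no class described here. Among the inhibitory nuclei, 110 were Lamp5-like, 233 Vip-like, 430 Sst-like and 574 Pvalb-like. Some classes were thin in single libraries: L6b-like nuclei numbered 19 and Lamp5-like nuclei 10 in library 3, and medium spiny neuron-like nuclei 1 in library 4. Globin genes stood among the leading genes of 1 of the 2 clusters that make up the L6 CT-like class.

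Voltage-gated calcium channels open on depolarisation and let calcium into the cell, and the alpha-1 subunit forms the pore and decides the channel's class. P/Q-type (Cacna1a) and N-type (Cacna1b) channels sit largely at presynaptic terminals, where they trigger transmitter release, and R-type channels (Cacna1e) are found in dendrites, spines and terminals. L-type channels (Cacna1c and Cacna1d) lie mainly on the soma and dendrites and link activity to gene transcription. T-type channels (Cacna1g, Cacna1h and Cacna1i) open near the resting potential and shape burst firing.

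Promoter sequences in the RefSeq table (build GRCm38.p6, the same assembly as mm10) matched 5 of the 8 genes: Cacna1b, Cacna1c, Cacna1d, Cacna1e and Cacna1i. Shown 5′ to 3′ are the 250 bases upstream of the listed starts of Cacna1e and Cacna1i, both higher in excitatory than in inhibitory neurons. Windows of the same length are shown for 2 of the 3 listed starts of Cacna1c, whose UMIs the counts do not divide between starts. The listed Cacna1e start and both Cacna1c starts shown lie inside the annotated gene spans, Cacna1c start 1 close to the 5′ end. Sequence upstream of the 5′ end of the annotated Cacna1e gene was not searched. Capitals mark matches to the motifs searched.
Cacna1e, chr1:154725921-154726170, minus strand: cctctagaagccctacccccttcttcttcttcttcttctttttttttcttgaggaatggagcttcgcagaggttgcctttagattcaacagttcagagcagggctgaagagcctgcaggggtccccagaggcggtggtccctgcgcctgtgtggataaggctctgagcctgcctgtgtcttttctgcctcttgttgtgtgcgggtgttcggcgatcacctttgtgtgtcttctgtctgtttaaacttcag
Cacna1i, chr15:80286988-80287237, plus strand: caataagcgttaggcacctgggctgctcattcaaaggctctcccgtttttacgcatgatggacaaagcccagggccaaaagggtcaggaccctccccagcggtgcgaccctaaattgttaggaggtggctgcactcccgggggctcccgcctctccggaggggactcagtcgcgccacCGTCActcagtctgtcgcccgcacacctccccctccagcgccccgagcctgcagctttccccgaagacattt
Cacna1c start 1, chr6:119196410-119196659, minus strand: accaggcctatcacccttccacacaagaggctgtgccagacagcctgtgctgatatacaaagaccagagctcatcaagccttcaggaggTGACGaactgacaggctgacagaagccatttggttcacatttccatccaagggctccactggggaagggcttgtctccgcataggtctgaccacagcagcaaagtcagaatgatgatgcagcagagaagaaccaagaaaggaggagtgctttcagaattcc
Cacna1c start 2, chr6:119108496-119108745, minus strand: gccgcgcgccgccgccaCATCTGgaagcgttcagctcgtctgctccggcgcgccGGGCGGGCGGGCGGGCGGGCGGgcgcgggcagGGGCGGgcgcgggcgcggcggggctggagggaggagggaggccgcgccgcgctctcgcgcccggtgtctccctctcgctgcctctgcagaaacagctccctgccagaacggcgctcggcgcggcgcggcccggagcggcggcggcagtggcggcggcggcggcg
The motifs were searched on both strands. For the general promoter elements these were the GC box, spelled GGGCGG, and the TATA box, spelled TATAAA. For factors that respond to calcium and activity they were the cyclic AMP response element, spelled TGACGTCA, and its short form within it, spelled TGACG. The site of the Egr factors was searched as GCGTGGGCG, which overlaps the GC box in part of its letters, and the E-box of neuronal bHLH factors was searched as CAGATG. None of the 6 motifs matched in the Cacna1e window, which held 6 CG dinucleotides, the median of the 32851 promoters in the table. The Cacna1i window held 16 CG dinucleotides and 1 match to TGACG, a motif present in 17.8% of all promoters. The Cacna1c starts differed in composition. Start 1 held 2 CG dinucleotides and 1 TGACG, and start 2 held 48 CG dinucleotides, 1 CAGATG and overlapping matches to GGGCGG, which 32.7% of all promoters hold. CAGATG was found in 14.4% of all promoters. A match describes the letters of the window alone.

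Over all kept nuclei, Cacna1e and Cacna1a were counted most often, at 776 and 733 CPM (counts per the usual CPM scale, the UMIs of a gene over all UMIs of the nuclei summed). Cacna1c followed at 617 CPM, Cacna1d at 497 and Cacna1b at 175, while the T-type genes lay at 39.1 (Cacna1i), 35.5 (Cacna1g) and 19.2 CPM (Cacna1h). Nuclear RNA is rich in unspliced transcripts, and the genes differ in length from 59.5 kb (Cacna1h) to 609 kb (Cacna1c), so levels of different genes are compared here per length. Per 100 kb of gene span, the order in excitatory neurons was Cacna1a (312 CPM per 100 kb), Cacna1e (183), Cacna1d (117), Cacna1b (115), Cacna1c (107), Cacna1g (60.1), Cacna1i (39.5) and Cacna1h (35.8). In inhibitory neurons Cacna1a was again at the top (302 CPM per 100 kb), with Cacna1b (137) and Cacna1d (117) next and Cacna1e further down at 43.6, near Cacna1g at 44.9. Pooled over excitatory neurons, the 3 T-type genes stood below the other genes per length. Single classes departed from this: Cacna1h stood above Cacna1b, Cacna1c and Cacna1d in L5 ET-like nuclei (136 CPM per 100 kb), and Cacna1g stood above Cacna1c and Cacna1d in L6 IT-like nuclei (111) and above Cacna1b and Cacna1e in L5/6 NP-like nuclei (83.8, with Cacna1b at 83.2). The order also rests on gene span, which fits counts that hold introns. Per kb of exon over all kept nuclei, Cacna1a stood at 64.2 CPM, Cacna1d at 39.4, Cacna1e at 30.7, Cacna1c at 29.1 and Cacna1b at 17.6, with the T-type genes at 1.97 to 3.97.

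In the mm10 annotation used (GENCODE M21), Cacna1e (chr1:154390731-154884501), Cacna1g (chr11:94408391-94474198) and Cacna1i (chr15:80287238-80398279) overlap no other annotated gene. Cacna1a (chr8:84388440-84640246) overlaps Gm16183 on the other strand, Cacna1b (chr2:24603887-24763152) overlaps Gm13459, and Cacna1h (chr17:25374285-25433783) overlaps Tpsg1. Cacna1c (chr6:118587240-119196418) overlaps Dcp1b and Gm25905 on the other strand and Gm18981 on its own, and Cacna1d (chr14:30039939-30491455) overlaps 6 genes on the other strand, Chdh and Dcp1a among them, and Gm18072 on its own. How the authors' counting treated strand and introns is not given in the sources used here, so reads of overlapping genes may be shared with these 5 members.

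**Figure D1:**
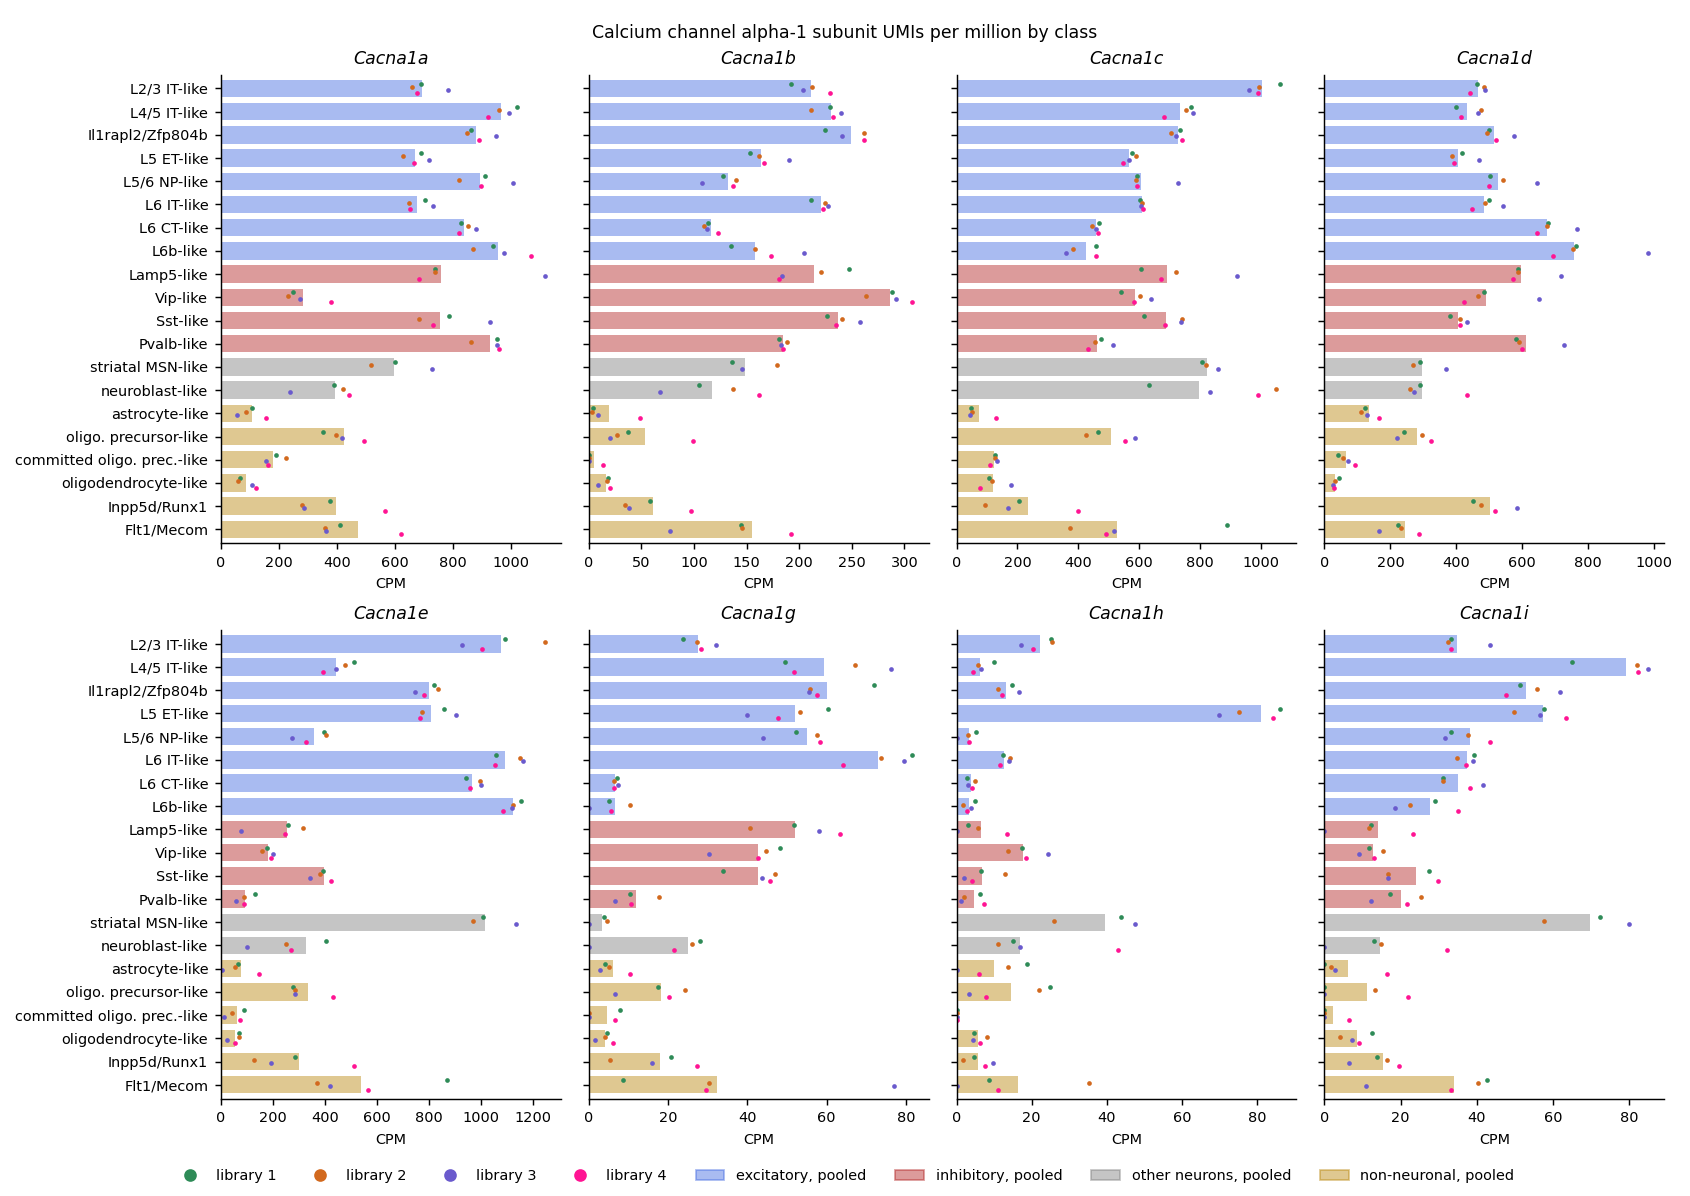
CPM of each alpha-1 gene (linear axis, scaled per gene) in each cell class. Bars are all libraries pooled, coloured by kind of cell, and points are libraries 1 to 4; Cacna1h is highest in L5 ET-like nuclei (81.0 CPM) and Cacna1a is lowest among cortical neurons in Vip-like nuclei (283 CPM).

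The first comparison asked which kind of cortical neuron carries each channel gene. Pooled over the classes of each kind, Cacna1e, Cacna1h and Cacna1i were higher in excitatory than in inhibitory neurons. The other 5 genes differed by less than 2-fold. A gene was called on size alone, with no test: its CPM had to differ by 2-fold or more, all 4 libraries had to give one direction, and the nuclei on both sides together had to hold 100 of its UMIs or more. By this rule 3 of 8 genes were called, all of them higher, beside 16.7% of 15802 features called in either direction and 9.16% called higher; the median log2 ratio was 0.31 for the 8 genes and -0.13 for all features tested. Intervals here and below are 95%, exact, and hold the error of counting alone, without the spread among animals.

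Cacna1e, the R-type pore, stood at 916, 964, 879 and 861 CPM in the excitatory nuclei of libraries 1 to 4 and at 234, 210, 160 and 229 CPM in the inhibitory nuclei. Every excitatory value lay above every inhibitory one, and the pooled log2 ratio was 2.07 (interval 2.01 to 2.12). Among the T-type genes, Cacna1h gave 23.4, 21.5, 17.4 and 21.0 CPM in the excitatory nuclei, where the inhibitory ones had 7.66, 7.53, 5.50 and 8.12 CPM, a log2 ratio of 1.51 (1.22 to 1.82). Its 2 sets of values did not overlap, although only 97 inhibitory UMIs stood behind them. The excitatory level of Cacna1h was uneven, with L5 ET-like nuclei at 81.0 CPM. L6 CT-like (3.82 CPM), L5/6 NP-like (3.33) and L6b-like nuclei (3.18) lay below every inhibitory class, the lowest being Pvalb-like at 4.63 CPM. Vip-like nuclei, at 17.8 CPM, lay above all excitatory classes but L5 ET-like and L2/3 IT-like (22.3 CPM). Cacna1i gave 41.4, 40.7, 50.3 and 45.5 CPM against 19.1, 19.8, 12.1 and 23.4 CPM, a log2 ratio of 1.15 (0.97 to 1.34), again without overlap. Library 3 gave the largest log2 ratio of Cacna1i, 2.05, against 0.96 to 1.11 in the others.

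The remaining genes were closer between both kinds of neuron. For Cacna1a the excitatory nuclei gave 784 and the inhibitory nuclei 762 CPM (log2 ratio 0.04, 0.01 to 0.07), and for Cacna1d they gave 529.7 and 527 CPM (0.01, -0.03 to 0.04). Cacna1b was at 184 and 219 CPM (-0.25, -0.31 to -0.19) and was lower in excitatory nuclei in 4 of 4 libraries. Cacna1c was at 654 and 571 CPM (0.20, 0.16 to 0.23) and Cacna1g at 39.5 and 29.6 CPM (0.42, 0.27 to 0.57), both higher in excitatory nuclei in 4 of 4 libraries. None of these 5 ratios reached 2-fold.

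**Figure D2:**
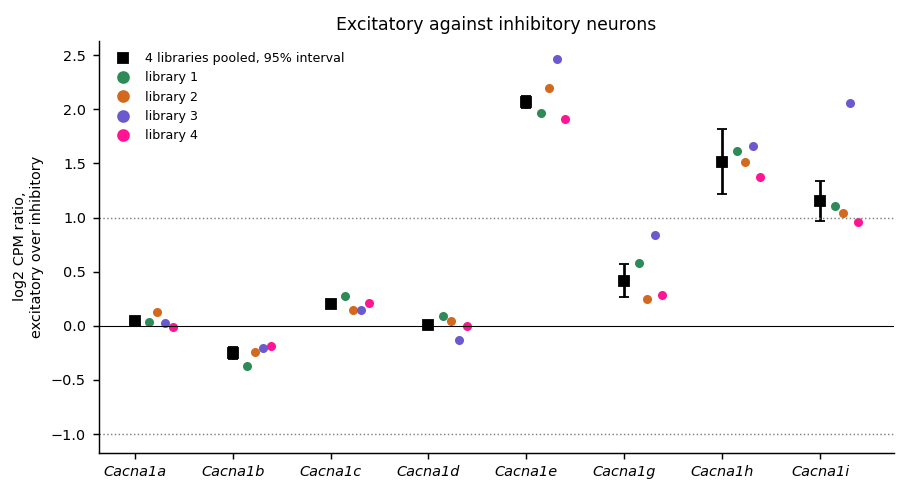
Log2 ratio of CPM in excitatory over inhibitory neurons for each alpha-1 gene; squares are the 4 libraries pooled with their exact 95% interval, points are libraries 1 to 4 and dotted lines mark 2-fold. Cacna1e, Cacna1h and Cacna1i lie beyond the 2-fold line, at 2.07, 1.51 and 1.15, and the other 5 genes between -0.25 and 0.42.

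Each excitatory class was then set against the other excitatory classes together, to ask which projection neurons carry each gene. Cacna1e, Cacna1g and Cacna1h met the rule in at least 1 class, and Cacna1a, Cacna1b, Cacna1c, Cacna1d and Cacna1i in none of the 8 classes. In all, 10 of 64 comparisons were called. By class, the rule called 0 of 8 genes in L2/3 IT-like nuclei (8.74% of all features), 2 in L4/5 IT-like (9.34%), 1 in L5 ET-like (9.65%), 2 in L5/6 NP-like (14.3%), 2 in L6 CT-like (10.3%), 1 in L6 IT-like (6.35%), 2 in L6b-like (11.6%) and 0 in the Il1rapl2/Zfp804b cluster (6.2%).

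Cacna1h was highest in L5 ET-like nuclei, the class that projects to subcortical targets such as brainstem and thalamus. It stood there at 86.2, 75.3, 69.9 and 84.1 CPM in libraries 1 to 4, and at 10.9 CPM in the other excitatory classes pooled (log2 ratio 2.89, 2.77 to 3.02). No other class reached these values in any library: the next was the medium spiny neuron-like class at 39.5 CPM and, among excitatory classes, L2/3 IT-like at 22.3 CPM. At least 1 Cacna1h UMI was found in 64.7% (61.6 to 67.7) of L5 ET-like nuclei (median depth 13945 UMIs), against 3.77% of L6 CT-like nuclei at 9839 UMIs and 1.75% of oligodendrocyte-like nuclei at 2693.5 UMIs. After thinning every nucleus to 1500 UMIs the shares were 12.1%, 0.469% and 0.755%. After thinning, the L6 CT-like share was thus not above the oligodendrocyte-like one. Oligodendrocyte-like nuclei also held RNA of excitatory markers (701 CPM), and whether they lack the gene was not tested.

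Cacna1h was called lower in 4 classes. It stood at 3.82 CPM in L6 CT-like nuclei (log2 ratio -2.81, -3.13 to -2.52), 3.18 CPM in L6b-like (-2.78, -3.73 to -1.97), 3.33 CPM in L5/6 NP-like (-2.71, -3.63 to -1.94) and 6.34 CPM in L4/5 IT-like nuclei (-1.80, -2.31 to -1.33). The counts were small, 12 UMIs in L6b-like and 13 in L5/6 NP-like nuclei. Because L5 ET-like nuclei enter the reference of each of these comparisons, part of each ratio is their high level. Relative to the Il1rapl2/Zfp804b cluster, at 13.1 CPM, and the L6 IT-like class, at 12.7 CPM, the 4 classes were lower as well.

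Cacna1g, another T-type pore, had a different order. In L6 IT-like nuclei it stood at 81.7, 73.7, 79.6 and 64.2 CPM in libraries 1 to 4, the highest class in each, against 34.3 CPM in the other excitatory classes (log2 ratio 1.09, 0.99 to 1.20). In L6 CT-like nuclei, from the same layer, it stood at 7.01, 6.48, 7.31 and 6.25 CPM against 50.3 CPM (-2.92, -3.15 to -2.70). The 2 classes of layer 6 differed by 11.0-fold in pooled Cacna1g CPM, and no library of one came near the other. The share of nuclei with a Cacna1g UMI was 53.1% for the L6 IT-like class, 6.06% for the L6 CT-like class and 1.24% for oligodendrocyte-like nuclei, and after thinning 11.2%, 1.24% and 0.216%. L6b-like nuclei resembled L6 CT-like nuclei, at 6.63 CPM from 25 UMIs (-2.62, -3.25 to -2.06).

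Cacna1i varied less among excitatory classes. It was highest in L4/5 IT-like nuclei, at 65.1, 82.1, 85.0 and 82.4 CPM in libraries 1 to 4 (pooled 79.1 CPM, log2 ratio 0.92, 0.78 to 1.06), under the 2-fold size. L5 ET-like nuclei followed at 57.5 CPM and the Il1rapl2/Zfp804b cluster at 52.9 CPM. L6b-like nuclei were lowest at 27.9 CPM, from 105 UMIs.

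The share of each gene in the summed T-type UMIs shows how the mixture changed with the class. Cacna1h made up 42.5% (40.7 to 44.4) of T-type UMIs in L5 ET-like nuclei and 8.41% in L6 CT-like nuclei. Cacna1g made up 59.3% (56.9 to 61.7) in L6 IT-like nuclei and 14.6% in L6 CT-like nuclei. Cacna1i made up 77.0% (74.4 to 79.4) in L6 CT-like and 73.9% (65.9 to 80.9) in L6b-like nuclei. No gene was thus the main T-type gene of every excitatory class. These shares are of UMIs and are not corrected for gene length.

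**Figure D3:**
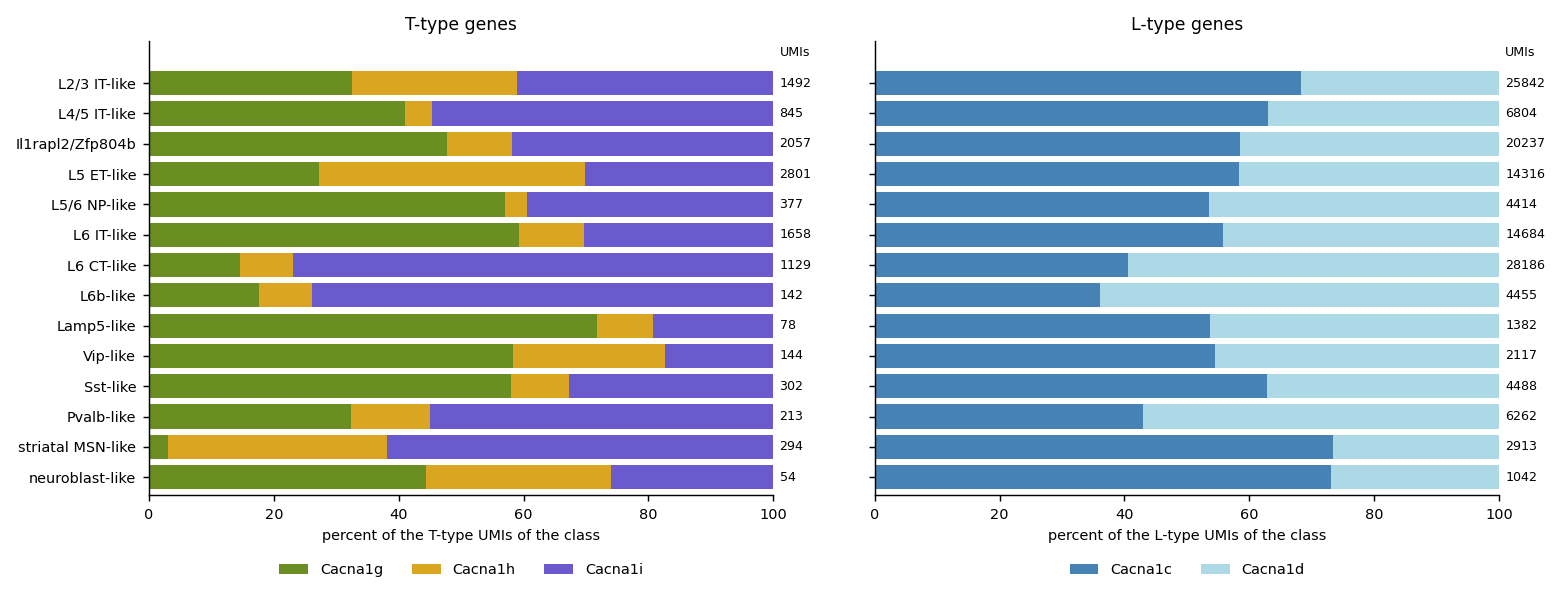
Share of each T-type gene in T-type UMIs and of each L-type gene in L-type UMIs, by neuron class, in percent. Cacna1i takes 77.0% of T-type UMIs in L6 CT-like nuclei and Cacna1h 42.5% in L5 ET-like nuclei, while Cacna1c takes 68.3% of L-type UMIs in L2/3 IT-like nuclei.

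Cacna1e was high in 6 of the 8 excitatory classes, from 800.5 CPM in the Il1rapl2/Zfp804b cluster to 1122 CPM in L6b-like nuclei, and lower in the other two. L5/6 NP-like nuclei stood at 397, 403, 274 and 328 CPM in libraries 1 to 4 against 927 CPM pooled in the rest (log2 ratio -1.37, -1.44 to -1.29). L4/5 IT-like nuclei stood at 513, 479, 442 and 394 CPM against 933 CPM (-1.07, -1.13 to -1.01). No value of these 2 classes reached the lowest library value of any of the other 6. Without library 4 the L4/5 IT-like ratio was under the 2-fold size.

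The L-type genes peaked in different excitatory classes, within 2-fold of the reference. Cacna1c was highest in L2/3 IT-like nuclei, at 1063, 992, 959 and 989 CPM in libraries 1 to 4, against 580 CPM in the other excitatory classes (log2 ratio 0.79, 0.76 to 0.81). It was lowest in L6b-like and L6 CT-like nuclei, at 426 and 459.6 CPM (both -0.64). Cacna1d was highest in those same 2 classes, at 764, 755, 981 and 693 CPM in L6b-like nuclei (pooled 756 CPM, log2 ratio 0.54, 0.48 to 0.59) and 675 CPM in L6 CT-like nuclei (0.48), and lowest in L5 ET-like nuclei at 406 CPM. Cacna1c therefore made up 68.3% of L-type UMIs in L2/3 IT-like nuclei, 40.5% in L6 CT-like and 36.0% in L6b-like nuclei. Over the 11 named cortical neuron classes, Pearson's r between the log2 levels of Cacna1c and Cacna1d was -0.66, and over the 17 named classes with glia included it was 0.77; the classes share libraries and differ in depth, and the values are descriptions.

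Of the presynaptic pores, Cacna1a was the most even, from 666 CPM in L5 ET-like to 965 CPM in L4/5 IT-like nuclei, a 1.45-fold range. Neighbouring excitatory classes in its order overlapped in their library values, except that L6 CT-like nuclei (819 to 877 CPM) lay above the next class, L2/3 IT-like (659 to 782 CPM). Cacna1b ranged over 2.15-fold, with L6 CT-like nuclei lowest at 113, 110, 112 and 123 CPM in libraries 1 to 4 against 207 CPM in the other excitatory classes (log2 ratio -0.84, -0.89 to -0.78). The Il1rapl2/Zfp804b cluster was highest among excitatory classes for Cacna1b at 249.6 CPM (0.54, 0.49 to 0.59).

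**Figure D4:**
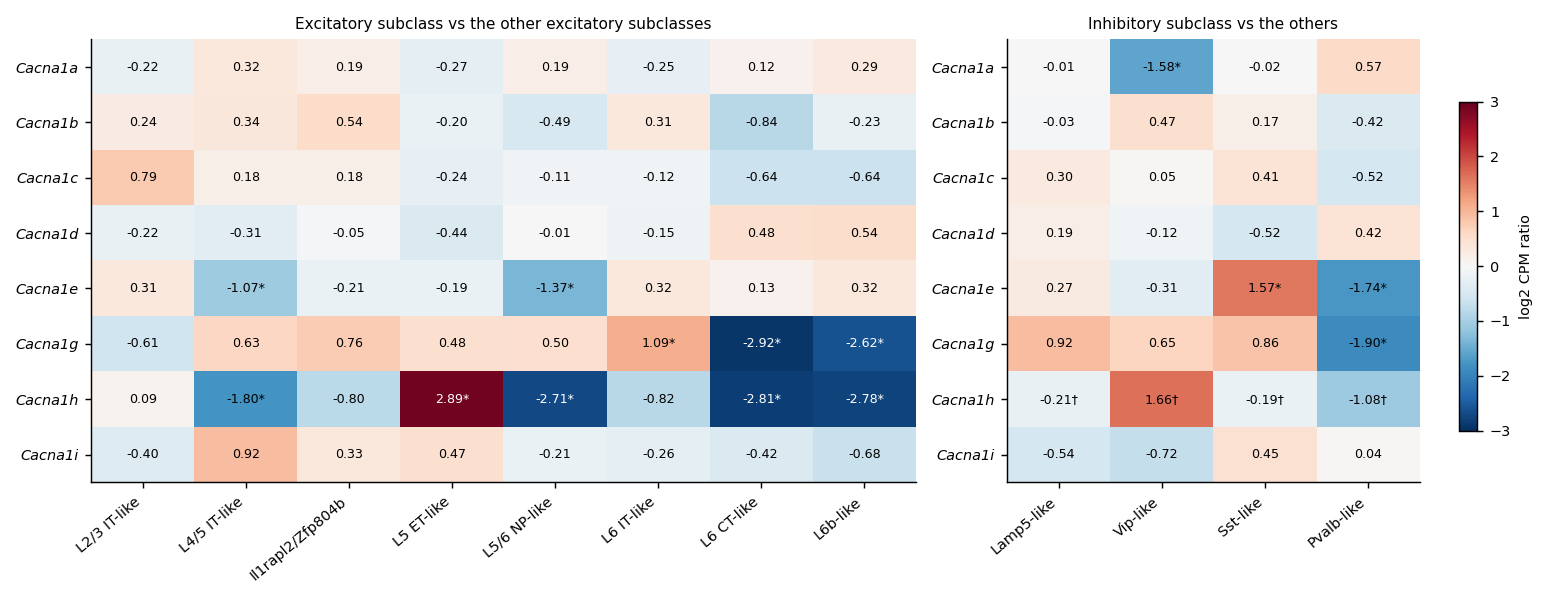
Log2 ratio of each alpha-1 gene in each neuron class against the other classes of its kind. An asterisk marks a called comparison and a dagger one with under 100 UMIs; the calls lie mostly in Cacna1e, Cacna1g and Cacna1h, with Cacna1h in L5 ET-like nuclei at 2.89 and Cacna1g in L6 CT-like nuclei at -2.92.

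Inhibitory classes were compared in the same way, with 7 of the 8 genes measured, since Cacna1h had 97 UMIs. Of 28 comparisons with enough UMIs, 4 were called: 0 of 7 genes in Lamp5-like nuclei (10.8% of all features), 2 in Pvalb-like (8.43%), 1 in Sst-like (6.39%) and 1 in Vip-like nuclei (9.9%). Cacna1a, the main pore of release at many fast synapses, was low in Vip-like nuclei at 247, 232, 271 and 380 CPM in libraries 1 to 4. The other inhibitory classes pooled stood at 847 CPM (log2 ratio -1.58, -1.71 to -1.46), and Pvalb-like nuclei, fast-spiking basket and chandelier cells, were highest at 949, 862, 950 and 956 CPM. A Cacna1a UMI was found in 70.8% of Vip-like nuclei at a median depth of 7541 UMIs, in 99.0% of Pvalb-like nuclei at 9093 UMIs and in 15.1% of oligodendrocyte-like nuclei; after thinning the shares were 32.8%, 70.0% and 8.74%. In library 4, where the Vip-like value was highest, the excitatory markers summed to 519 CPM in Vip-like nuclei against 137 to 306 CPM in the other libraries; their part in the result was not tested.

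Cacna1b, the N-type pore, had its highest level of any class in Vip-like nuclei, at 288, 263, 292 and 308 CPM in libraries 1 to 4. The ratio to the other inhibitory classes was under 2-fold (log2 ratio 0.47, 0.34 to 0.60). Every library's value lay above the highest library value of the next class, the Il1rapl2/Zfp804b cluster at 224 to 262 CPM. Vip-like nuclei were thus the lowest cortical neuron class for Cacna1a and the highest for Cacna1b.

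Cacna1e separated Sst-like from Pvalb-like nuclei. It stood at 391, 382, 341 and 424 CPM in Sst-like nuclei of libraries 1 to 4 (log2 ratio 1.57, 1.46 to 1.68, against the other inhibitory classes). Pvalb-like nuclei gave 131, 87.5, 57.5 and 88.5 CPM (-1.74, -1.88 to -1.61). The library values of these 2 classes did not overlap, and pooled they differed by 4.19-fold. Cacna1e UMIs were found in 81.6% of Sst-like, 32.9% of Pvalb-like and 13.3% of oligodendrocyte-like nuclei, and after thinning in 39.5%, 10.7% and 7.77%. Excitatory markers summed to 283 CPM in Pvalb-like and 299.99 CPM in Sst-like nuclei, and the part of free excitatory RNA in these Cacna1e levels was not tested. Cacna1g was also lower in Pvalb-like nuclei, at 10.3, 17.8, 6.63 and 10.5 CPM against 44.1 CPM pooled in the other classes (-1.90, -2.30 to -1.52), from 69 UMIs.

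Other values in inhibitory classes stayed within 2-fold of the reference. Cacna1d was highest in Pvalb-like nuclei at 611 CPM and lowest in Sst-like nuclei at 406 CPM, while Cacna1c was at 461 CPM in Pvalb-like and 688 CPM in Sst-like nuclei. Cacna1c made up 43.0% of L-type UMIs in Pvalb-like and 62.9% in Sst-like nuclei. Cacna1h, with 35 of its 97 inhibitory UMIs in Vip-like nuclei, stood there at 17.8 CPM against 5.63 CPM in the other inhibitory classes (log2 ratio 1.66, 1.02 to 2.28) and was under the minimum for a call. Cacna1i lay between 12.7 and 24.1 CPM in all 4 classes.

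The 334 medium spiny neuron-like nuclei resemble a striatal type that borders the dissected region. They stood at 3.46 CPM for Cacna1g, from 9 UMIs, at 39.5 CPM for Cacna1h and at 69.9 CPM for Cacna1i. Cacna1i thus made up 61.9% of their T-type UMIs and Cacna1g 3.06%. Cacna1e was at 1017 CPM and Cacna1c at 821 CPM, and Cacna1c made up 73.4% of L-type UMIs. In neuroblast-like nuclei, a class led by Top2a, a gene of dividing cells, Cacna1c was at 797 CPM and Cacna1a at 394 CPM; 11 nuclei each came from libraries 3 and 4.

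Excitatory and inhibitory neurons together were next set against non-neuronal nuclei, with the 544 other neurons on neither side. All 8 genes were called higher in neurons, beside 38.1% of 16571 features called in either direction and 13% called higher; the median log2 ratio was 1.71 for the 8 genes and -0.40 for all features. Cacna1b (188 against 41.3 CPM, log2 ratio 2.19) and Cacna1e (825 against 191 CPM, 2.11) had the largest ratios and Cacna1h (19.7 against 8.65 CPM, 1.19) the smallest. Cacna1a in non-neuronal nuclei stood at 196, 195, 193 and 349 CPM in libraries 1 to 4, so library 4 was higher than the others, and its log2 ratio was 1.16 there against 1.94 to 2.13 elsewhere.

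RNA of excitatory neurons was present in the non-neuronal nuclei. The 5 excitatory markers summed here (Slc17a7, Sv2b, Neurod6, Tbr1 and Nrgn) reached 484 to 1401 CPM in 6 non-neuronal classes, against 845 to 1247 CPM in excitatory and 283 to 383 CPM in inhibitory classes, and all 5 had UMIs in each of these 6 classes. The 6 inhibitory markers summed to 55.3 to 421 CPM there, against 754 to 2248 CPM in inhibitory and 21.0 to 37.0 CPM in excitatory classes. Their part in the non-neuronal levels of the channel genes was not tested. The ratios also moved with the mitochondrial limit. When nuclei above 1% mitochondrial UMIs were left out, instead of those above 5%, 0 of 8 genes reached 2-fold, at log2 ratios of 0.49 to 0.99. That setting kept 3878 nuclei, against 12991 in the main one, and no comparison among its non-neuronal classes could be made. The make-up of its non-neuronal nuclei was not compared with that of the main setting.

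Among 6 non-neuronal classes, 26 of the 42 comparisons with enough UMIs were called; Cacna1h, with 87 UMIs, could not be called there. In these classes the rule also called many other features: 26.2% in astrocyte-like nuclei, 29.9% in oligodendrocyte-like, 20.6% in oligodendrocyte precursor-like, 30.4% in committed oligodendrocyte precursor-like nuclei, 25.5% in a cluster led by Inpp5d and Runx1 and 23.6% in one led by Flt1 and Mecom. The Inpp5d/Runx1 cluster held 7 of 7 microglia markers but stayed unnamed for its low depth (median 2426 UMIs), and the Flt1/Mecom cluster held 6 of 6 endothelial markers but was led by globin genes. A cluster of 54 nuclei led by Thbs4 and Veph1 had none in library 4 and could meet the rule for no feature (0% called). The rule called 6 of 7 genes lower in astrocyte-like nuclei (17.5% of all features lower), 6 lower in oligodendrocyte-like nuclei (22.3% lower) and 5 lower in committed precursor-like nuclei (25.5% lower). With at most 20% mitochondrial UMIs, 5 of the 6 astrocyte-like ratios changed sign. It called 3 genes higher in oligodendrocyte precursor-like nuclei (6.6% of all features higher), 1 higher in the Inpp5d/Runx1 cluster (12% higher) and 5 higher in the Flt1/Mecom cluster (8.64% higher). Of the committed precursor calls, Cacna1b, Cacna1g and Cacna1i rested on 1 or 2 UMIs, and the intervals of the Cacna1g and Cacna1i ratios included 0.

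Cacna1d, an L-type pore, was highest in the Inpp5d/Runx1 cluster among non-neuronal classes. It stood at 451, 475, 583 and 517 CPM in libraries 1 to 4, against 135 CPM in the other non-neuronal classes pooled (log2 ratio 1.89, 1.77 to 2.02). Per 100 UMIs of excitatory markers the cluster held 56.0 Cacna1d UMIs (51.8 to 60.6; libraries 48.5 to 108), and excitatory neurons held 47.4 (libraries 43.4 to 58.4). Cacna1c and Cacna1e in the same cluster lay below the excitatory proportion, at 26.1 against 58.6 and at 33.8 against 80.9 UMIs per 100. Inhibitory neurons held 174 Cacna1d UMIs per 100, and inhibitory markers summed to 421 CPM in the cluster; the part of neuronal RNA in its Cacna1d level was not tested. For Cacna1d the cluster was above the excitatory neurons of the same library in libraries 1, 3 and 4 and not in library 2 (48.5 against 49.3), so its ranges overlapped. For Cacna1c and Cacna1e every library value of the cluster lay below every excitatory one. Cacna1d was lowest in oligodendrocyte-like nuclei, at 45.5, 31.4, 25.0 and 27.6 CPM (log2 ratio -3.06, -3.37 to -2.77), with 4.75 UMIs per 100 marker UMIs.

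Oligodendrocyte precursor-like nuclei had the highest Cacna1c level of the glial classes with a name. Libraries 1 to 4 gave 463, 426, 587 and 554 CPM, against 168 CPM in the other non-neuronal classes (log2 ratio 1.59, 1.47 to 1.71). Inhibitory markers summed to 115 CPM in this class, above all excitatory classes. The class held 89.1 Cacna1c UMIs per 100 excitatory-marker UMIs (81.4 to 97.6; libraries 74.2 to 156), above the 58.6 of excitatory neurons (libraries 54.9 to 69.1) without overlap of the libraries, and below the 188 of inhibitory and the 168 of other neurons. The part of neuronal RNA in this level was not tested. Cacna1a (423 CPM, log2 ratio 1.07) and Cacna1e (335 CPM, 1.07) were also called there, but neither was without library 2 or without library 3. Cacna1e lay at 58.8 UMIs per 100 marker UMIs, under the 80.9 of excitatory neurons.

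In the Flt1/Mecom cluster, Cacna1b (155 CPM, log2 ratio 2.23), Cacna1i (34.0 CPM, 1.82), Cacna1e (540 CPM, 1.71), Cacna1c (528 CPM, 1.35) and Cacna1a (472 CPM, 1.07) were called higher. With at most 20% mitochondrial UMIs all 5 ratios changed sign, to between -1.83 and -0.66; of the 2354 nuclei matched to this cluster in that setting, 2223 were ones that the 5% limit leaves out. The excitatory markers summed to 1401 CPM in this cluster, above the 845 to 1247 CPM of the excitatory classes, and per 100 marker UMIs the 5 genes lay below the excitatory proportion (for example Cacna1e 38.6 against 80.9 and Cacna1c 37.7 against 58.6). In library 1 Cacna1c reached 72.2, above the excitatory libraries. Whether these cells or free RNA gave the UMIs was not tested.

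**Figure D5:**
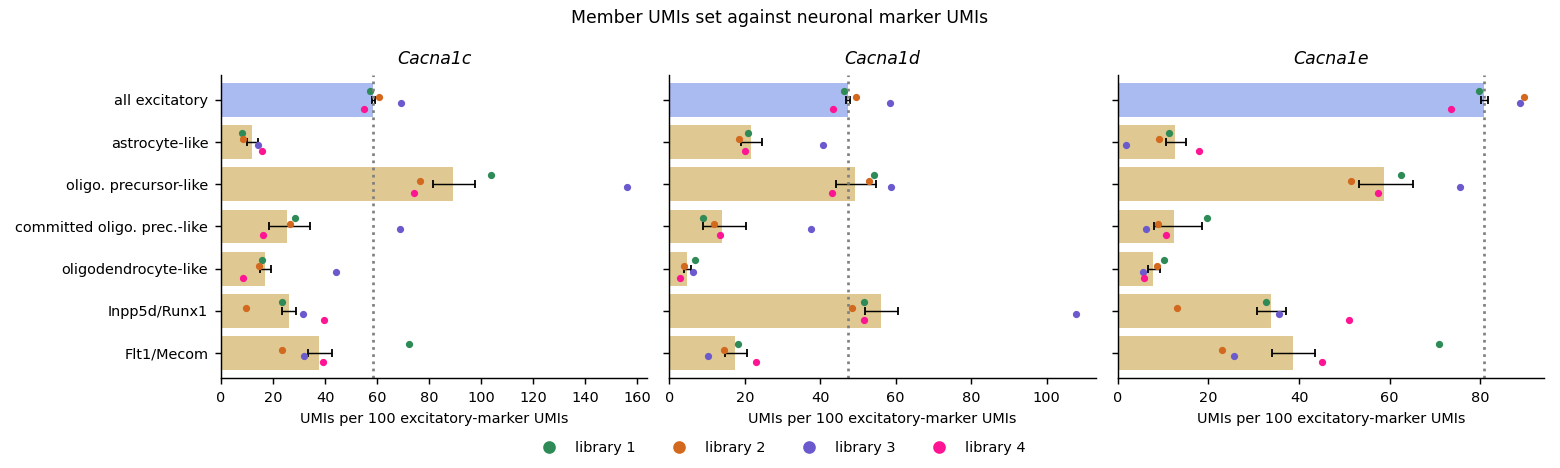
UMIs of Cacna1c, Cacna1d and Cacna1e per 100 UMIs of excitatory markers, in excitatory neurons and non-neuronal classes; bars are the 4 libraries pooled with exact 95% intervals, points are libraries 1 to 4 and the dotted line is the excitatory value. Cacna1c in oligodendrocyte precursor-like nuclei (89.1) and Cacna1d in the Inpp5d/Runx1 cluster (56.0) lie above the pooled excitatory values of 58.6 and 47.4.

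The reporter depends on calcium and light, so reporter-positive nuclei, those with at least 1 TREmcherry UMI, were compared with reporter-negative nuclei of the same class. A UMI was present in 9.84% of excitatory, 8.91% of inhibitory and 5.96% of non-neuronal nuclei, at median depths of 10935, 8731 and 2993 UMIs, and in 12.8% of the Flt1/Mecom cluster at 1959 UMIs. The share in neurons was therefore not above that of every non-neuronal class. None of the 45 comparisons with enough UMIs in 6 classes of at least 50 positive nuclei was called; Cacna1h in L6 CT-like and Cacna1g and Cacna1h in Pvalb-like nuclei were under the minimum. There the rule called 0.551% of features in L2/3 IT-like, 0.713% in L5 ET-like, 0.694% in L6 CT-like, 0.913% in L6 IT-like, 1.63% in Pvalb-like nuclei and 0.314% in the Il1rapl2/Zfp804b cluster. None was called over all excitatory (0.331%) or all inhibitory nuclei (0.656%), where Cacna1h was under the minimum in the inhibitory nuclei. Cacna1a was at 722 CPM in 818 positive and 792 CPM in 7495 negative excitatory nuclei, lower in 4 of 4 libraries (log2 ratio -0.13, -0.17 to -0.10). Cacna1e was at 934 CPM in the positive and 900.1 CPM in the negative excitatory nuclei, higher in 4 of 4 libraries (0.05, 0.02 to 0.08). Within classes, Cacna1e was lower in L5 ET-like nuclei (-0.14, -0.23 to -0.05), in 3 of 4 libraries. It was higher in L6 IT-like nuclei (0.16, 0.08 to 0.24), in 3 of 4. Cacna1a was lower in L2/3 IT-like nuclei in 4 of 4 libraries (-0.18, -0.26 to -0.10) and level in L6 CT-like nuclei (0.003, -0.06 to 0.07). Cacna1g was lower in L2/3 IT-like nuclei in 4 of 4 libraries (-0.71, -1.23 to -0.23), from 38 positive UMIs. Cacna1d was at 463 CPM in 120 positive and 533 CPM in 1227 negative inhibitory nuclei (-0.20, -0.33 to -0.08), lower in 4 of 4 libraries. The positive inhibitory nuclei numbered 7, 49, 7 and 57 in libraries 1 to 4. Positive Pvalb-like nuclei numbered 2 in library 1 and positive L5 ET-like nuclei 2 in library 3, so the direction in some libraries rests on few nuclei. Positive nuclei were deeper, with median depths of 12019.5 against 10835 UMIs in excitatory and 9638.5 against 8664 UMIs in inhibitory nuclei.

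Channels are assembled with alpha2delta and beta subunits, which carry the pore to the membrane and set its gating, and these were read from a fixed list. The rule called 16.7% of all features in this comparison and 9.16% of all features as higher in excitatory neurons, against which the counts that follow are read. Among the 4 alpha2delta genes, Cacna2d1 was higher in excitatory neurons (729 against 261 CPM, log2 ratio 1.48) and Cacna2d2 lower (6.66 against 159 CPM, -4.58), while Cacna2d3 (0.04) and Cacna2d4 were not called. None of the 4 beta genes was called; Cacnb4 was at 818 and 509 CPM, Cacnb2 at 364 and 362, Cacnb1 at 32.9 and 19.3 and Cacnb3 at 24.5 and 16.9 CPM in excitatory and inhibitory neurons. Of the remaining alpha-1 genes, Cacna1f was at 5.69 CPM and Cacna1s at 0.119 CPM in excitatory neurons, and Nalcn, a sodium leak channel related to them, at 261 CPM in excitatory neurons and at 292 CPM in inhibitory neurons. Of 13 measured genes of calcium stores and clearance, 7 were higher and 2 lower in excitatory neurons, with Ryr3, a calcium release channel, at a log2 ratio of 2.41, Atp2b4, a calcium pump, at 2.12 and Itpr2, an inositol trisphosphate receptor, at -2.85. Kcnn3, a calcium-gated potassium channel, was higher (2.12), 1 of 4 measured in its list.

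Among excitatory classes, 11 of 32 alpha2delta and 1 of 32 beta comparisons were called, beside 10 of 64 for the 8 pores, where the rule called 6.2% to 14.3% of all features. Among inhibitory classes the counts were 9 of 12, 3 of 16 and 4 of 28, where it called 6.39% to 10.8%. Cacna2d3 was at 22.6 CPM in L6 CT-like nuclei against 817 CPM in the other excitatory classes (log2 ratio -5.18) and low in L5/6 NP-like nuclei (-4.41), but higher in L5 ET-like (1.23) and L4/5 IT-like nuclei (1.18). Among inhibitory classes Cacna2d3 was higher in Sst-like (2.07) and lower in Pvalb-like nuclei (-3.31), the same directions as Cacna1e. Among excitatory classes both genes were lower in L5/6 NP-like nuclei, but in L4/5 IT-like nuclei Cacna2d3 was higher and Cacna1e lower (-1.07). Cacna2d1 was at 2032 CPM in Lamp5-like nuclei against 101 CPM in the others (4.33), and lower in Sst-like (-2.94) and Pvalb-like nuclei (-2.58), where Cacna2d2 was higher (1.36). Cacnb2 was higher in L2/3 IT-like (1.63), Lamp5-like (1.60) and Vip-like nuclei (1.19) and lower in Pvalb-like nuclei (-1.31). In L5 ET-like nuclei, where Cacna1h was highest, Stac, an adaptor of L-type channels, was at 61.0 against 1.94 CPM (4.98) and Kcnn2, a calcium-gated potassium channel, at 808 CPM (1.82).

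For each pore gene, the features with the most similar pattern over 17 named classes were found by Pearson's r of log2(CPM + 1) among 10818 candidates. Cacna1b was closest to Cnnm1 (0.98), Mtus2 (0.98) and Unc13a (0.96), Cacna1d to Clvs2 (0.97), Nrg3os (0.97) and Mcf2l (0.96), and Cacna1a to Pcnx2 (0.96), Srrm3 (0.95) and Scn8a (0.95). Cacna1c was closest to Cxadr, Shc2 and Rec114 (each 0.95), Cacna1i to Add2 (0.94), Cnksr2 (0.93) and Phf24 (0.93), and Cacna1e to Muc3a (0.94), Klhl3 (0.92) and Celf5 (0.92). The values were lower for Cacna1g, closest to Cpne7, Tmem200a and Greb1l (each 0.85), and for Cacna1h, closest to Gabra2 (0.83), L3mbtl4 (0.80) and Slc24a4 (0.78). The 17 classes include glia, and the values were not computed over neurons alone. Between Cacna1a and Cacna1b, r was 0.79 over the 17 named classes and -0.56 over the 11 named cortical neuron classes. The classes share libraries and differ in depth, and these correlations are descriptions.

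The class with the highest level was the same in all 4 libraries for 4 genes: Vip-like for Cacna1b, L6b-like for Cacna1d, L6 IT-like for Cacna1g and L5 ET-like for Cacna1h. For Cacna1i it was L4/5 IT-like in 3 libraries and medium spiny neuron-like in library 1, and for Cacna1c L2/3 IT-like in 2 libraries and neuroblast-like in the other two. Cacna1a and Cacna1e had different top classes between libraries. When the processing was changed, the top class stayed the same for Cacna1b, Cacna1d and Cacna1h. After thinning to 1500 UMIs, Cacna1g was highest in Lamp5-like and Cacna1c in neuroblast-like nuclei. In some settings Cacna1i was highest in medium spiny neuron-like nuclei. A UMI of every one of the 8 genes was found in 19.1% of L5 ET-like nuclei, which held 6.45 of the 8 genes on average against 4.88 in L6 CT-like nuclei. L5 ET-like nuclei were also the deepest class, and after thinning to 1500 UMIs the mean was 2.74 genes, below the 3.02 of L2/3 IT-like nuclei.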

How the data were processed

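The deposited matrix holds raw UMI counts, whole numbers for each feature in each nucleus, per the file headers. The authors used Cell Ranger 7.1.0 and the mm10 build, per the submitters' processing notes; the treatment of introns and strand is not given in the sources used here. Each library was prepared from frozen tissue with 10x nuclei isolation and 3' kits, per the labels' protocols.

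Barcodes under 500 genes or 800 UMIs, or above 5% mitochondrial UMIs, were left out (9132), and 279 doublets with a Scrublet score above 0.25 were removed. This score was set because the automatic threshold ran from 0.203 to 0.534 across libraries. After each nucleus was scaled to 10000 UMIs and put on a log scale, 2000 variable genes, not counting calcium channel and listed genes, gave 30 principal components, 15 neighbours and Leiden clusters at resolution 1.0 (scanpy 1.11.5, anndata 0.12.19, igraph 0.11.9, scikit-learn 1.9.0, Python 3.11.15, numpy 2.4.6, scipy 1.17.1, pandas 2.3.3, matplotlib 3.10.9). A name needed 3 or more markers with 2-fold enrichment and 10 CPM. It stayed unnamed where its own leading genes, its depth or a second type (a score over 0.85 of the best) went against the name.

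UMIs were summed per class. Levels have exact Poisson intervals, ratios exact conditional binomial intervals and shares exact binomial (Clopper-Pearson) intervals. No test was run, since the barcodes carry no link to samples. Named were all 8 alpha-1 genes, the other alpha-1, alpha2delta and beta genes, at most the 3 largest called genes of each other list and comparison, and the 3 most similar genes of each pore, among genes with at least 500 UMIs. The members and lists were chosen with earlier results of these data known. The calling rule, tested on simulated data for excitatory against inhibitory neurons, called 55 of 56 genes made to change 3-fold, 1 of 65 made to change 1.5-fold and 21 of 15501 left as they were; these counts held counting error only. Alternatives changed the mitochondrial limit, gene minimum, doublets, resolution, UMI minimum, weighting of libraries, thinning, scaling, clustering genes and each library in turn.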

Additional observations from a re-analysis of the deposited data

How the results depend on the processing

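No paired analysis was possible because the barcode endings carry no link to samples or their replicate numbers; classes were compared library by library instead. For excitatory against inhibitory neurons 3 of 8 genes were called under each of the alternatives run, without each library in turn included. With classes weighted equally, size alone was counted. Log2 ratios were 1.85 to 2.23 for Cacna1e, 1.03 to 1.82 for Cacna1h and 1.03 to 1.36 for Cacna1i. The 10 calls among excitatory classes became 9 to 13, and 9 to 10 without single libraries; the 4 among inhibitory classes became 3 to 6, and 4 to 5 without single libraries. The non-neuronal calls were 26 of 42, 16 of 20 at resolution 0.5 and 16 of 24 with nuclei thinned to 1500 UMIs, and 19 to 23 without single libraries; with at most 1% mitochondrial UMIs no such comparison could be made. For neurons against non-neuronal nuclei, 8 of 8 became 0 with at most 1% mitochondrial UMIs, a setting that kept 3878 nuclei against 12991. Reporter calls were 0, and 1 with libraries weighted equally (Cacna1i in Pvalb-like nuclei, from 7 positive UMIs) and 1 with no UMI minimum (Cacna1h in Pvalb-like nuclei, from 1 positive UMI).

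Of 51 called values, 20 kept their call and direction in every one of the alternatives that could be run and 11 changed sign in some. With at most 20% mitochondrial UMIs, the astrocyte-like log2 ratios became 0.28 (Cacna1a), 0.95 (Cacna1b), 0.65 (Cacna1e), 0.85 (Cacna1g) and 1.13 (Cacna1i), and the Flt1/Mecom ratios -1.60 (Cacna1a), -1.05 (Cacna1b), -1.83 (Cacna1c), -1.58 (Cacna1e) and -0.66 (Cacna1i). With doublets kept, Cacna1g in committed precursor-like nuclei became 0.36. In the 20% setting, 2223 of the 2354 nuclei matched to the Flt1/Mecom cluster were ones that the 5% limit leaves out; the cause of the changes was not tested. Calls kept throughout included Cacna1h in L5 ET-like nuclei (2.78 to 3.08), Cacna1g in L6 IT-like (1.05 to 1.30) and L6 CT-like nuclei (-2.99 to -2.56), Cacna1e in Sst-like nuclei (1.48 to 1.80), Cacna1c in oligodendrocyte precursor-like nuclei (1.28 to 2.05) and Cacna1d in the Inpp5d/Runx1 cluster (1.24 to 2.47). Calls of neurons lost were Cacna1a in Vip-like nuclei (-0.92 at the smallest, with at most 20% mitochondrial UMIs or resolution 0.5) and Cacna1e in Pvalb-like nuclei with doublets kept (-0.64). Also lost were Cacna1e in L4/5 IT-like nuclei with listed genes used for clustering or without library 4 (-0.88 at the smallest) and Cacna1h in L4/5 IT-like nuclei after thinning. Cacna1g in Pvalb-like nuclei was lost with at most 1% mitochondrial UMIs or thinned, where UMIs fell under the minimum. In settings chosen after seeing the data, 8 of 8 genes stayed called for neurons against non-neuronal nuclei without the Flt1/Mecom and Inpp5d/Runx1 clusters. For excitatory against inhibitory neurons, 3 of 8 stayed called without the 37 nuclei led by St18 and Prr5l. With classes weighted equally 3 of 8 reached 2-fold, where the direction by library and the UMI minimum were not applied. Depth limits Cacna1h, with 97 UMIs in inhibitory neurons, and the T-type genes in glia.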
